A study of Mus musculus with 2 samples.

Results

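Imprinted growth genes are genes that are read mainly from a single parental copy, in at least some tissues, and that act on growth before and around birth. The 10 genes described here, of the 31053 listed in the deposited features, were picked by symbol: *Igf2*, *H19*, *Dlk1*, *Meg3*, *Nnat*, *Cdkn1c*, *Peg3*, *Plagl1*, *Gnas* and *Igf2r*. All 10 were found in both libraries. They were followed in islet cells of mice aged 2 weeks, wild type (WT) or lacking *Npc1*, the lysosomal membrane protein that moves cholesterol out of the lysosome. The knockout (Npc1KO) was global, on a C57BL/6J background, and came from matings of heterozygous mice, as did the WT littermates. Each genotype was a single 10x Genomics 3′ library made from the pooled islets of 3 female mice, so differences between the genotypes could not be set against a spread among replicates and were not tested. Intervals are exact at 95% and cover counting error only.

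Imprinting rests on DNA methylation that is laid down differently in egg and sperm and kept through development at a few control regions. Genes read from the paternal copy, such as *Igf2*, *Dlk1*, *Peg3* and *Plagl1*, mostly favour fetal growth, whereas maternally read genes such as *H19*, *Cdkn1c* and *Igf2r* mostly restrain it, and many of them are turned down in the weeks after birth. In the islet *Nnat* is known for its part in making insulin and *Gnas* for carrying hormone signals, and loss of the maternal chromosome region that carries *CDKN1C* goes with overgrown β cells in human infants. The present counts come from inbred mice and do not separate the parental copies.

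The members lie on 5 chromosomes of the GRCm38 build. On chromosome 7, *H19* (142575529 to 142578143) and *Igf2* (142650766 to 142666816) are 72.6 kb apart on the same strand, *Cdkn1c* lies at 143458339 to 143461050 and *Peg3* at 6703892 to 6730431. On chromosome 12, *Dlk1* (109452823 to 109463336) and *Meg3* (109541001 to 109571726) are 77.7 kb apart, also on the same strand. *Nnat* (157560078 to 157562522) and *Gnas* (174284320 to 174346744) lie on chromosome 2, *Plagl1* (13060504 to 13131694) on chromosome 10 and *Igf2r* (12682406 to 12769664) on chromosome 17. *H19* and *Meg3* are annotated as long non-coding RNAs and the other 8 as protein coding.

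RefSeq promoter windows, 250 bases before to 50 bases after a transcript start on GRCm38.p6, were held for 8 of the 10 members. Windows of the neighbours *Dlk1* (chr12:109452573-109452872) and *Meg3* (chr12:109540746-109541045) are shown because these genes lie side by side and differ in where they were found, that of *Plagl1* (chr10:13090582-13090881) because its pattern was the one most like that of *Dlk1*, and that of *Nnat* (chr2:157559828-157560127) because its level was led by other classes than theirs. All 4 are on the plus strand and read 5′ to 3′. Capitals mark TGCCGC, the hexamer that the imprint-keeping factor ZFP57 recognises when methylated, and the TATA box TATAAA, both searched on both strands, so that a match may read as its reverse complement.
Dlk1: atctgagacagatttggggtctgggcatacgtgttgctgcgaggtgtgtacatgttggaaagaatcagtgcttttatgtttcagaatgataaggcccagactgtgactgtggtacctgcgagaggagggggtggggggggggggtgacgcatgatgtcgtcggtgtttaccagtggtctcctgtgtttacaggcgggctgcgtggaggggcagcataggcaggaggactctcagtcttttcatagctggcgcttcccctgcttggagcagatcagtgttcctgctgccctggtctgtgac
Meg3: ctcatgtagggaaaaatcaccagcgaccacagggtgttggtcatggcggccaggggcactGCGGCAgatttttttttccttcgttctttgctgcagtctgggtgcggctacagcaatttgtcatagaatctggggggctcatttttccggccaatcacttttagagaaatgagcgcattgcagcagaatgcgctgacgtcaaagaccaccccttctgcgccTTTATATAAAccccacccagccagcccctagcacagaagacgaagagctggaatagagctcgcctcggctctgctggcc
Plagl1: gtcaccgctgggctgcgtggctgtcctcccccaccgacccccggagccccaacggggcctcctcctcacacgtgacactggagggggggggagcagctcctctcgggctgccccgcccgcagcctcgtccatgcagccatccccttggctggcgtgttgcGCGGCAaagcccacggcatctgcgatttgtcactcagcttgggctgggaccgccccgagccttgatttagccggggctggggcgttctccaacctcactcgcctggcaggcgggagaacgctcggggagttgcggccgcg
Nnat: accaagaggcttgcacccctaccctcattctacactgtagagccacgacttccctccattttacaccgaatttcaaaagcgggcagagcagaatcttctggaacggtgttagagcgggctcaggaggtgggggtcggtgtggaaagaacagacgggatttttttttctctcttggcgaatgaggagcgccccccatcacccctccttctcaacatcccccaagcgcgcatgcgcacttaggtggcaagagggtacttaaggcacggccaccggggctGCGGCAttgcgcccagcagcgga
The hexamer was in the *Meg3*, *Plagl1* and *Nnat* windows and not in the *Dlk1* window, against 11.6% of all 32851 windows. Of these 4, the *Meg3* window alone held TATA box letters, as 2 overlapping matches on opposite strands, against 13.6% of all windows. The 4 windows held 9 (*Dlk1*), 13 (*Meg3*), 26 (*Plagl1*) and 17 (*Nnat*) CpG dinucleotides, where the median window held 7. Over all 15 windows of the 8 members, 4 held the hexamer (those 3 and 1 of 4 for *Igf2*) and 4 the TATA box (*Meg3* and 3 of 4 for *Gnas*). Of these 3 *Gnas* windows, 2 overlap and hold the same match. These are descriptions of letters and carry no statement on binding.

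Cells were classed by their leading hormone or, without one, by marker genes. The WT library gave 4628 kept cells with a median of 18905 UMIs (counted RNA molecules) and the Npc1KO library 4269 with a median of 21381. Of these, 4263 and 4083 fell in 8 classes: 1833 and 1826 insulin-leading (β), 1048 and 857 glucagon-leading (α), 189 and 141 somatostatin-leading (δ), 411 and 442 PP-leading (*Ppy* and *Pyy*), 443 and 448 endothelial, 238 and 256 stellate, 65 and 70 mesenchymal and 36 and 43 Schwann cells. Every marker was highest in its own class in both libraries except in PP-leading cells, where 3 of 5 markers were in WT and 2 of 5 in Npc1KO. *Npc1* itself stood at 8.40 CPM (UMIs per 1000000 UMIs of the class or library) in WT and 4.14 in Npc1KO. Lymphocytes made up 212 WT cells and 1 Npc1KO cell and entered no comparison. Macrophages (57 and 33 cells) served as the reading of free RNA, since every class also carried insulin UMIs, with a median of 0.656% to 2.54% in the classes led by another hormone or by none. The libraries shared 12 barcode sequences.

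*Igf2* encodes a secreted insulin-like growth factor of the fetus, and *H19* is the non-coding RNA that shares its enhancers. *Igf2* was close to absent from the count table, with 16 UMIs over all 8 classes in WT and 14 in Npc1KO. Mesenchymal cells held 9 and 8 of them, or 12.96 CPM (5.93 to 24.6) in WT and 11.7 CPM (5.06 to 23.1) in Npc1KO. No β, α, δ, PP-leading, endothelial or stellate class passed 0.71 CPM. In Schwann cells and macrophages no UMI was counted, which allows up to 11.4 CPM in WT Schwann cells. These values are lower limits, because *Igf2* shares exon bases with the annotated same-strand protein-coding gene *Gm49394*, which is in the features list. Of the 5723 exon bases of *Igf2*, 3596 (62.8%) belong to both genes. Of the last 1000 bases at the 3′ end, where a 3′ library reads, 997 are shared, and counting of the Cell Ranger kind drops a read that fits 2 genes. *Gm49394* had 1 UMI in WT and 2 in Npc1KO β cells and none in the other 7 classes. How much *Igf2* was lost in this way cannot be told from the counts.

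**Figure D1:**
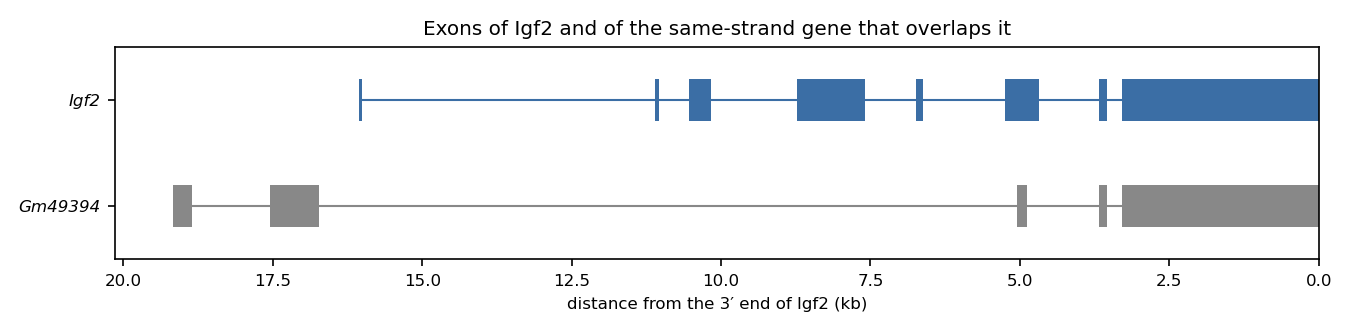
Exons of *Igf2* and of the same-strand gene *Gm49394*, drawn to scale by distance from the 3′ end of *Igf2* in kb, with all transcripts of a gene merged; bars are exons and lines the span of the gene. The 3′-most exons of both genes cover nearly the same bases, 997 of the last 1000.

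*H19* has no such partner and was counted. In mesenchymal cells it stood at 230.4 CPM (196 to 269) in WT and 190.3 CPM (159 to 226) in Npc1KO. Stellate cells had 10.8 and 11.96 CPM, endothelial cells 1.76 and 1.61 CPM, and no hormone class passed 0.37 CPM. The order mesenchymal, stellate, endothelial thus held in both libraries without overlap, while the hormone classes rested on 9 UMIs or fewer each. Mesenchymal cells were 1.52% and 1.71% of the classed cells and held 80.8% and 77.8% of the *H19* UMIs. Its UMIs were uneven among those cells: 24 of 65 WT and 29 of 70 Npc1KO mesenchymal cells had any, and 1 WT cell held 60 of 160. Without the highest cell of each library the levels were 148 and 161 CPM.

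*Dlk1*, a membrane-bound and shed relative of the Notch ligands that marks immature cells, was also led by mesenchymal cells, at 1027 CPM (953 to 1105) in WT and 799 CPM (734 to 869) in Npc1KO. Among hormone classes δ cells came next, at 28.4 and 42.8 CPM, then PP-leading cells at 13.6 and 23.8 CPM, then β cells at 8.05 and 10.2 CPM, then α cells at 1.51 and 5.18 CPM. This δ, PP, β, α order was the same in both libraries, and the ranges of neighbouring classes did not overlap. Stellate cells at 9.02 and 8.55 CPM overlapped with β cells, but not with the hormone genes and *Iapp* left out of the totals, where β cells were at 19.1 and 23.0 CPM and stellate cells at 9.28 and 8.72 CPM. No *Dlk1* UMI was counted in Schwann cells or macrophages, so free *Dlk1* RNA was not seen in the cells that should lack it. This holds within limits of 4.41 and 5.31 CPM for macrophages. The α levels of 1.51 and 5.18 CPM lay under these limits, and the part of free RNA in them was not tested. In β cells 294 of 1833 WT and 357 of 1826 Npc1KO cells had a *Dlk1* UMI, and the top 5% of β cells held 54.2% and 51.7% of its UMIs.

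A few cells of other classes carried 10 or more *Dlk1* UMIs. There were 2 such β cells in WT, with 73 of the 441 UMIs of the class, and 4 in Npc1KO, with 73 of 551. Both WT cells and 2 of the 4 Npc1KO cells also had 3 or more mesenchymal markers, which 6 of the other 1831 WT and 4 of the other 1822 Npc1KO β cells had. By contrast, none of the 2 WT and 5 Npc1KO *Dlk1*-rich PP-leading cells had any of the mesenchymal markers. All 76 *Dlk1* UMIs of Npc1KO endothelial cells were in 3 cells (31, 26 and 19 UMIs), each with 5 to 7 of the 10 mesenchymal markers detected. The part of mixed droplets in these values was not tested beyond 2 alternatives given with the genotype ratios. These were doublet removal and the removal of hormone-led cells with markers of 2 classes.

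*Meg3*, the long non-coding RNA of the maternal copy next to *Dlk1*, was spread across the islet instead. It reached 1912 and 1772 CPM in mesenchymal cells, 1494 and 1432 in δ, 1157 and 986 in α, 875 and 886 in PP-leading and 810.1 and 841 in β cells. Schwann cells (843 and 792 CPM) overlapped with β cells, while stellate cells (306 and 233 CPM) and endothelial cells (94.6 and 69.8 CPM) were lowest of the 8 classes. Macrophages had 50.01 and 40.7 CPM. Thinned to 3000 UMIs per cell, 88.4% of WT and 89.3% of Npc1KO β cells still held a *Meg3* UMI (99.7% in both without thinning), against 11.1% of WT and 0% of Npc1KO macrophages. With hormone genes left out of the totals, δ cells were highest for *Meg3*, at 2210 and 2124 CPM, ahead of mesenchymal cells (1948 and 1798 CPM) and β cells (1920 and 1903 CPM). By plain CPM *Dlk1* and *Meg3* were thus both highest in mesenchymal cells, but across the hormone classes *Meg3* stayed at or above 810.1 CPM and *Dlk1* at or below 42.8 CPM. On the opposite strand, *Gm26906* shares 1228 bases with the *Meg3* exons.

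*Plagl1* (*Zac1*), a zinc finger factor that restrains the cell cycle, was led by mesenchymal cells as well, at 204 CPM (142 UMIs) in WT and 117 CPM (80 UMIs) in Npc1KO. Every other class was at or below 8.84 CPM, and endothelial cells overlapped with both δ and PP-leading cells. In β cells it stood at 2.54 and 1.51 CPM, with a UMI in 116 of 1833 and 73 of 1826 cells. The pattern was therefore the narrow one of *H19* and *Dlk1*, with a low remainder in all hormone classes.

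*Cdkn1c* encodes p57, an inhibitor of cyclin-dependent kinases that holds cells in G1. It was the only member led by stellate cells, the contractile cells around islet vessels, at 330.0 CPM in WT and 517 CPM in Npc1KO. Mesenchymal cells followed at 258 and 307 CPM, then endothelial cells at 62.4 and 90.6 CPM, with Schwann cells at 72.1 and 6.63 CPM. Of the hormone classes, α cells were highest at 13.4 and 17.2 CPM, above PP-leading cells at 4.29 and 6.74 CPM β cells at 4.18 and 4.28 CPM and δ cells at 2.58 and 7.81 CPM. Macrophages had 2.94 and 14.2 CPM, on 2 and 8 UMIs. Within WT, α, PP-leading and β cells were above the macrophage level and δ cells below it. Within Npc1KO, of the hormone classes only α cells were above it. Macrophage levels on 2 and 8 UMIs are too loose to settle these orders, and the part of free RNA in these low levels was not tested. In stellate cells thinned to 3000 UMIs, 62.2% of WT and 71.4% of Npc1KO cells held a UMI, against 1.76% and 1.37% of β cells.

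*Peg3*, a zinc finger factor of the paternal copy, resembled *Meg3*. It was at 1022 and 1031 CPM in mesenchymal, 989 and 992 in δ, 1006 and 944 in α and 903 and 912 in PP-leading cells. Mesenchymal, δ and α cells were within a narrow range, and δ and α cells overlapped. β cells were lower, at 599.5 and 737 CPM, and stellate (233 and 259.8), Schwann (167 and 192) and endothelial cells (76.5 and 72.2 CPM) lower still. This order turned with hormone genes left out of the totals: the 4 hormone classes then had 1421 to 1561 CPM in WT and 1446 to 1666 CPM in Npc1KO, all above the 1041 and 1046 CPM of mesenchymal cells, and β cells were the lowest of the 4 in WT and the highest in Npc1KO. Macrophages had 64.7 CPM in WT, where 1 cell held 28 of 44 UMIs, and 10.6 CPM in Npc1KO.

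*Nnat* encodes neuronatin, a small endoplasmic reticulum protein that aids insulin processing in β cells. It was led by δ cells (234 and 227 CPM), Schwann cells (182 and 222 CPM) and β cells (160.3 and 189.6 CPM), with PP-leading cells at 83.3 and 100.7 CPM. With hormone genes left out of the totals β cells were highest, at 380 and 429 CPM, above δ cells at 346 and 336 CPM. Mesenchymal cells, where *H19*, *Dlk1* and *Plagl1* were highest, had only 14.4 and 8.78 CPM of *Nnat*. α cells were also low, at 11.6 and 12.2 CPM, above endothelial cells (9.92 and 7.68 CPM) in both libraries. Macrophages had 17.7 and 3.54 CPM of *Nnat*, so that α cells were below them in WT and above them in Npc1KO. Its share in β cells was uneven: 26.6% of WT and 31.1% of Npc1KO β cells held a UMI at 3000 UMIs per cell (63.8% and 68.8% without thinning), the top 5% of β cells held 36.0% and 34.3% of its UMIs, and 1 WT cell alone had 154. In macrophages the thinned shares were 3.70% and 3.03%.

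*Gnas* encodes the stimulatory G protein subunit that links the glucagon, GLP-1 and other receptors to cyclic AMP, and the count also takes in the imprinted longer products XLαs and Nesp of the same locus. It was highest in α cells, at 6659 and 5647 CPM, and lowest of the 8 classes in β cells, at 1202 and 1157 CPM. With hormone genes left out of the totals α cells were still highest, but β cells (2848 and 2619 CPM) were above mesenchymal (2258 and 2445 CPM) and Schwann cells (1932 and 1839 CPM). By plain CPM, δ (3978 and 3796), stellate (3525 and 3889) and PP-leading cells (3750 and 3444 CPM) overlapped with their neighbours in the order. On the opposite strand, *Nespas* shares 988 and *Gm20721* shares 1469 bases with the *Gnas* exons. Insulin UMIs, a median of 53.2% of a WT and 50.9% of an Npc1KO β cell, are part of the total by which each CPM of β cells is divided.

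*Igf2r*, the receptor that carries IGF2 to the lysosome for breakdown, closed the group on the receptor side. Mesenchymal cells (197 and 227 CPM), stellate cells (106 and 109 CPM) and endothelial cells (74.7 and 78.4 CPM) led in that order in both libraries. Schwann cells and the 4 hormone classes lay between 18.5 and 34.2 CPM and overlapped with their neighbours in the order. Macrophages had 4.41 and 1.77 CPM.

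**Figure D2:**
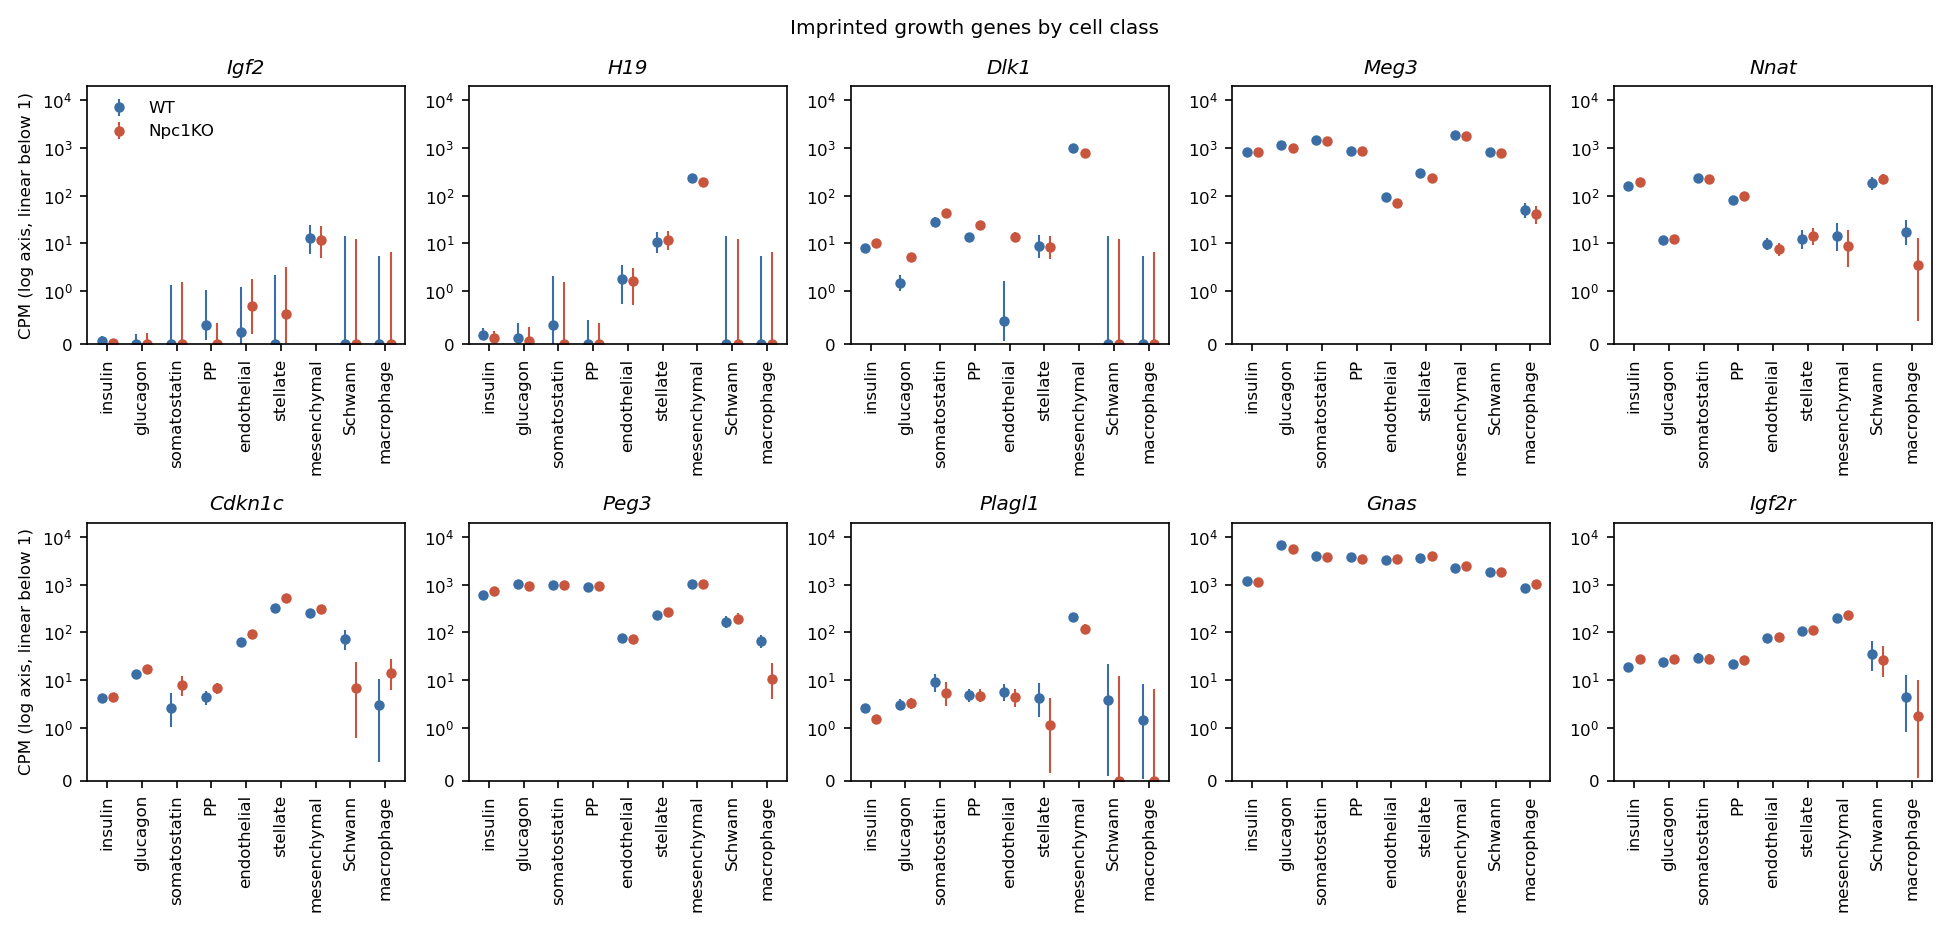
Level (CPM, log axis that is linear below 1) of each of the 10 members in 8 cell classes and in macrophages; points are WT (blue) and Npc1KO (red) libraries and lines exact 95% counting intervals. *Igf2*, *H19*, *Dlk1* and *Plagl1* peak in mesenchymal cells, *Cdkn1c* in stellate cells, *Nnat* in δ, Schwann and β cells and *Gnas* in α cells.

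A gene was called class-led when the same class was highest in both libraries and at least 4-fold over the median of the 8 classes in both, among genes with 20 CPM or more in a class of each library. Of the 9 members that passed this filter, all but *Igf2*, 5 were called: *H19*, *Dlk1*, *Plagl1* and *Igf2r* for mesenchymal and *Cdkn1c* for stellate cells. Over all 8966 genes that passed, 22.5% were called, and 314 of these 2018 were mesenchymal. The fold over the median class was 120.3 in WT and 67.3 in Npc1KO for *Dlk1*, 45.5 and 31.0 for *Plagl1*, 8.71 and 41.4 for *Cdkn1c* and 6.201 and 8.19 for *Igf2r*. *H19* gets no fold, as its median class held too few UMIs. *Nnat*, at 4.78 and 3.94, fell just short in Npc1KO, and its smaller fold ranged from 3.66 to 13.3 over the alternatives, with a call under 5 of them, the looser cell filter (13.3) and hormone genes left out of the totals (4.59) among them. Under the stricter cell filter *Cdkn1c* was not called. By this measure *Meg3* (2.23 and 2.05), *Gnas* (1.94 and 1.64) and *Peg3* (1.36 and 1.25) were the broad ones.

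Over the 16 class values of both libraries, on the log2(CPM + 10) scale, the gene most like *Dlk1* among the 8966 compared was another member, *Plagl1*, with r = 0.95. *H19* went with *Plagl1* at r = 0.95 and with *Dlk1* at r = 0.91, *Meg3* with *Peg3* at r = 0.87 and *Cdkn1c* with *Igf2r* at r = 0.92. These are descriptions over points that share libraries and marker-based classes. Among the genes nearest to *H19* were *Svep1* and *Gli1* (r of 0.99 or more), and those nearest to *Plagl1* were *Pdgfra* (r = 0.99), which is one of the markers that set the mesenchymal class, *Hsd11b2* and *Adcy7*. After *Plagl1*, the genes nearest to *Dlk1* were *Tmem119* and *Plac8* (r = 0.95). For *Cdkn1c* they were *C1qtnf6*, *Sept11* and *Gyg* (r = 0.97), for *Igf2r* *Gstm2* and *Chsy1* (r = 0.97), for *Peg3* *Tceal9*, *Mettl1* and *Twsg1* (r = 0.94 to 0.97), for *Nnat* *Ankrd54*, *Flrt1* and *Upf3b* (r = 0.94 to 0.96), for *Meg3* *Mlec*, *Sec61g* and *Arfip2* (r = 0.91 to 0.94) and for *Gnas* *Serp2*, *2610002M06Rik* and *Tmem250-ps* (r = 0.87 to 0.90).

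Within the mesenchymal class the members did not mark all cells alike. Per 10000 UMIs of a cell, *Dlk1* ran from 0 to 50.9 in WT with a median of 6.68, and from 0 to 45.8 in Npc1KO with a median of 2.92. *Cdkn1c* had medians of 1.86 and 2.52, *Plagl1* of 0.937 and 0, and *H19* of 0 in both. *Dlk1* was thus present in most cells (53 of 65 and 49 of 70) and *H19* in a minority. Among WT cells with *Dlk1*, 67.9% also held *Plagl1*, against 25.0% of cells without it, and in Npc1KO the shares were 61.2% and 14.3%. For *Dlk1* and *H19* the libraries differed in direction: 18 of 53 *Dlk1* cells (34.0%) and 6 of the other 12 held *H19* in WT, but 27 of 49 (55.1%) and 2 of the other 21 (9.52%) in Npc1KO. All 8 WT and all 5 Npc1KO mesenchymal cells with an *Igf2* UMI also held *Dlk1*. Median depths of cells with and without *Dlk1* were alike, 10064 and 10597 UMIs in WT and 9690 and 9141 in Npc1KO.

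**Figure D3:**
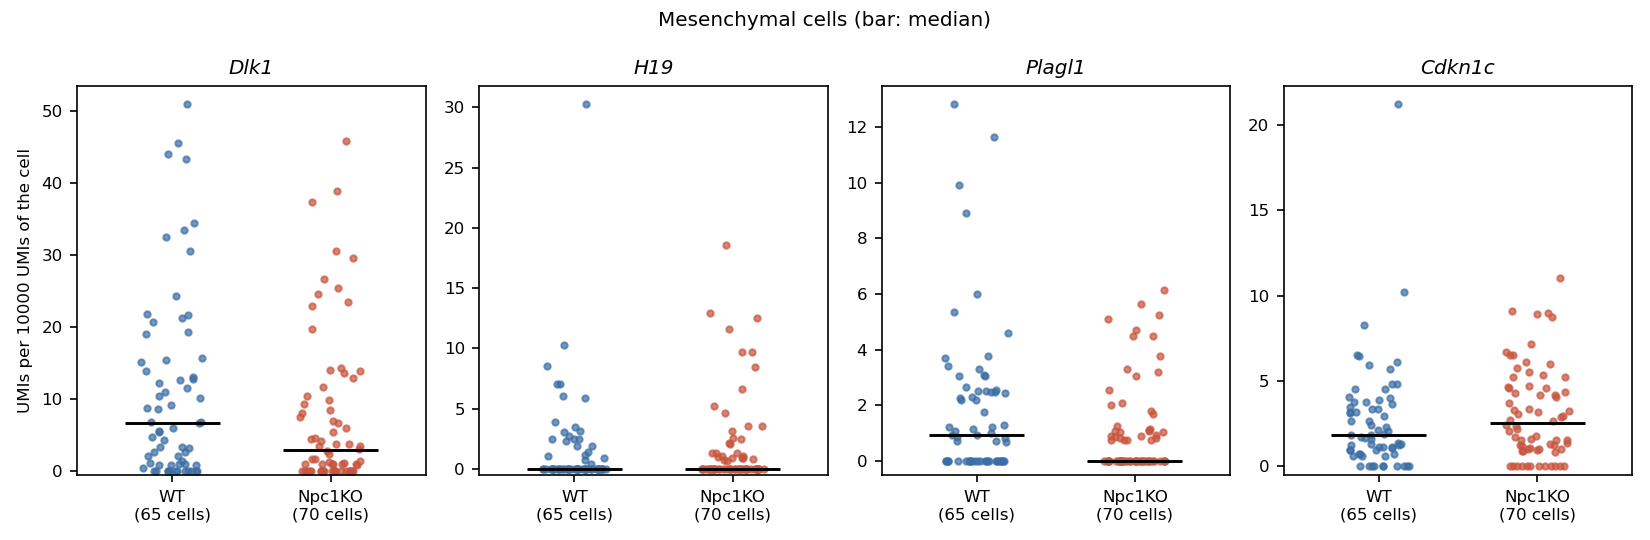
*Dlk1*, *H19*, *Plagl1* and *Cdkn1c* in single mesenchymal cells, as UMIs per 10000 UMIs of the cell, with each point a cell and the bar the median. WT has 65 cells and Npc1KO 70; a single WT cell at 30.3 stands apart for *H19*, and the *Dlk1* median is 6.68 in WT and 2.92 in Npc1KO.

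Between the genotypes, no member that passed the filter on low values was 1.5-fold apart in β cells. Ratios of Npc1KO over WT are given relative to the median gene of the class, which itself shifted by 0.12 (log2) in β cells and by less than 0.1 elsewhere, and 1.5-fold either way was called among genes with 5 CPM or more in a library and 20 UMIs or more in both together. None of the 6 members that passed in β cells was called, where 2.65% of 8858 genes were. *Igf2r* came closest: its 1013 UMIs (18.5 CPM) in WT and 1475 (27.2 CPM) in Npc1KO gave a log2 ratio of 0.44 (0.32 to 0.56). *Dlk1* (0.22), *Peg3* (0.18) and *Nnat* (0.12) were slightly higher and *Gnas* (−0.17) and *Meg3* (−0.07) slightly lower in Npc1KO, each with an interval that leaves out 0. The sign for *Meg3* turned with CPM not scaled to the median gene, at 0.05. *Cdkn1c* and *Plagl1* were under the filter in β cells, with 229 and 232 UMIs for *Cdkn1c* and 139 and 82 for *Plagl1*. The *Plagl1* levels of 2.54 and 1.51 CPM there gave −0.86 (−1.28 to −0.46), past the 1.5-fold size though under the filter.

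In α cells *Dlk1* was the only one of 7 members called, where 1.78% of 9897 genes were. It reached the 5 CPM of the filter in Npc1KO alone, at 5.18 against 1.51 CPM in WT. It had 28 UMIs in 27 WT cells and 89 UMIs in 48 Npc1KO cells, a log2 ratio of 1.73 (1.12 to 2.41), of which a single Npc1KO cell held 22. Without the highest cell of each library the ratio was 1.43, and after doublet removal by Scrublet 26 and 56 UMIs were left, at 1.53 and 3.53 CPM, under the filter. It was also under the filter with the leading hormone at 20% of UMIs or more and by the mean over cells. Both α levels of *Dlk1* lay under the macrophage limits given above, and the part of free RNA in this ratio was not tested. *Gnas*, at −0.27 (−0.28 to −0.25), and *Meg3*, at −0.26 (−0.29 to −0.23), were lower in Npc1KO by less than the threshold. In PP-leading cells *Dlk1* was again the one member of 7 called, against 4.38% of genes, with 111 and 223 UMIs and a log2 ratio of 0.74 (0.41 to 1.09). After Scrublet it was 0.70 there, and with the looser cell filter 0.52, which is not a call. In δ cells its 77 and 104 UMIs gave 0.58 (0.14 to 1.03), just under the threshold, and 0.87 after Scrublet. With hormone-led cells holding markers of 2 classes removed, *Dlk1* was called in α, PP-leading and δ cells. The *Dlk1* ratio was therefore above 0 in all 4 hormone classes, and in mesenchymal cells lower, at −0.33 (−0.50 to −0.17).

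Of 8 members in δ cells 2 were called, against 11.4% of genes: *Cdkn1c* at 1.53 (0.28 to 3.08) on 7 and 19 UMIs, 9 of the 19 in 1 cell, and *Plagl1* at −0.71 (−1.83 to 0.29) on 24 and 13 UMIs. *Cdkn1c* reached 5 CPM in Npc1KO alone, at 7.81 against 2.58 CPM in WT. The interval of *Plagl1* takes in 0, and without the highest cell of each library *Cdkn1c* was at 1.08. After Scrublet *Plagl1* was at −0.57 and *Cdkn1c* under the filter, and both were under it with the leading hormone at 20% or with cells holding markers of 2 classes removed. The δ levels of *Cdkn1c* did not pass that of Npc1KO macrophages, which rests on few UMIs. In endothelial cells *Dlk1* alone of 8 was called (4.62, 3.03 to 8.01), against 6.23% of genes, and it rested on the 3 cells with mesenchymal markers named above. Scrublet removed all 3, which left 1 WT UMI and none in Npc1KO. Before that, *Dlk1* had reached 5 CPM there in Npc1KO alone, at 13.6 against 0.44 CPM in WT.

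*Cdkn1c* was the member called in stellate cells, 1 of 8 against 12.1% of genes, with 549 and 908 UMIs and a log2 ratio of 0.64 (0.49 to 0.80). It was 0.58 after Scrublet and 0.56 with the leading hormone at 20%, both just under the threshold, and a share of 1 in 8 is near that background. The same gene was at 0.53 (0.32 to 0.74) in endothelial, 0.33 (0.08 to 0.58) in α and 0.28 (−0.01 to 0.58) in mesenchymal cells. In PP-leading cells it was at 0.58 (−0.03 to 1.23), and its level there was above that of macrophages in WT and below it in Npc1KO, on few macrophage UMIs. Schwann cells went the other way, at −3.19 (−6.62 to −1.42) on 19 and 2 UMIs, 1 member of 5 against 23.9% of genes, and it was under the filter there after Scrublet. Apart from that class of 36 and 43 cells, the *Cdkn1c* ratio was above 0 in each class where it passed the filter, with intervals that take in 0 in PP-leading and mesenchymal cells. In PP-leading cells (4.29 and 6.74 CPM) and δ cells (2.58 and 7.81 CPM) *Cdkn1c* reached 5 CPM in Npc1KO alone. The filter there could be passed only through the higher library, so the direction in these classes is partly set by it. In β cells, where *Cdkn1c* was under the filter, its ratio was −0.08 (−0.35 to 0.19) on 229 and 232 UMIs.

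*Plagl1* was the member of 8 called in mesenchymal cells, where 21.2% of genes were called. Its 142 and 80 UMIs gave −0.77 (−1.19 to −0.37), and −0.69 without the highest cell of each library. It was present in 39 of 65 WT and 33 of 70 Npc1KO cells. *H19* was at −0.25 (−0.59 to 0.09) there and at 0.16 without the highest cells, so that its direction turned. In all, 8 of 57 member and class pairs were called, 5 higher and 3 lower in Npc1KO. The share of all genes called ran from 1.78% in α to 23.9% in Schwann cells, so this count is not read as a result about the members.

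**Figure D4:**
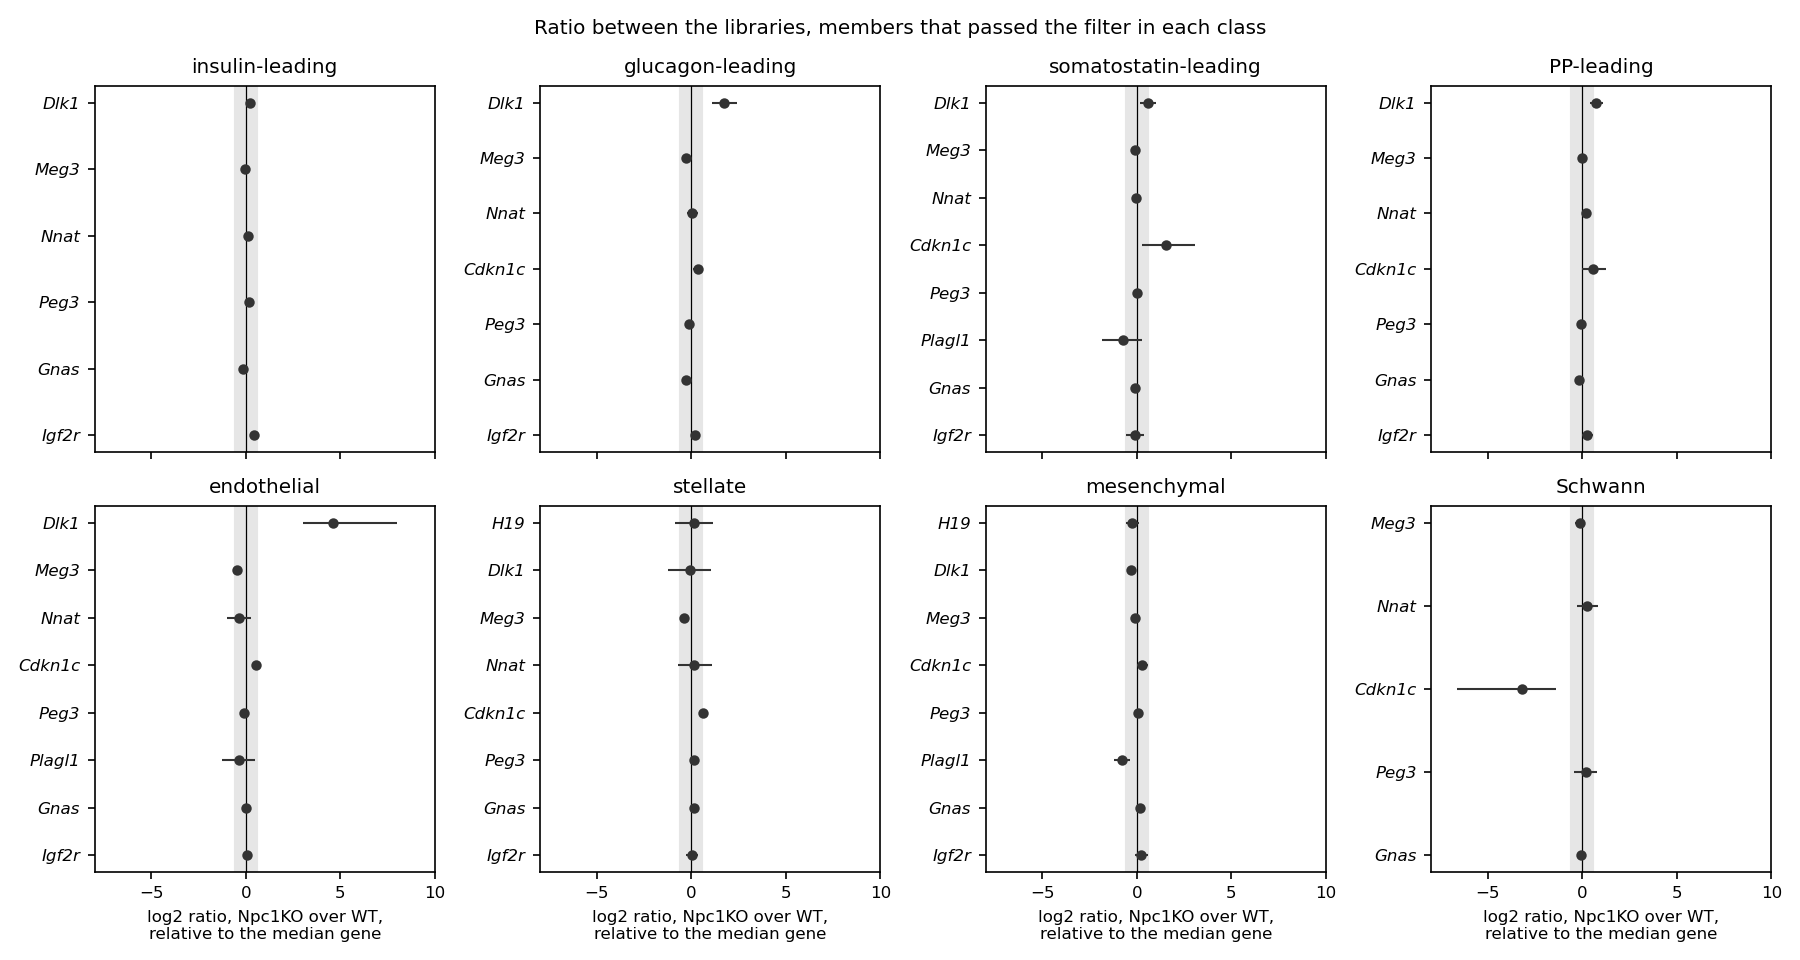
Log2 ratio of Npc1KO over WT relative to the median gene, for the members that passed the filter on low values in each of 8 classes; points are ratios, lines exact 95% counting intervals and the grey band the range under 1.5-fold. Most points sit in the band; *Dlk1* in α, PP-leading and endothelial cells and *Cdkn1c* in stellate, δ and Schwann cells lie outside it, with *Plagl1* below it in mesenchymal and δ cells.

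Cycling cells were compared with the others of their class and library, as several members act on the cell cycle. A cell counted as cycling with 5 or more of 20 proliferation markers detected, which gave 109 of 1833 WT and 85 of 1826 Npc1KO β cells and 103 of 1048 and 90 of 857 α cells. Of 6 members that passed the filter in both libraries in β cells, 2 were 1.5-fold apart the same way in both, *Meg3* and *Nnat*, against 22.5% of 9123 genes. In β cells *Meg3* was lower in cycling cells, at 443 against 836 CPM in WT (ratio 0.53, 0.50 to 0.56) and 556 against 856 CPM in Npc1KO (0.65, 0.62 to 0.68). *Nnat* was higher, at 286 against 151 CPM (1.89, 1.77 to 2.02) in WT and 289 against 185 CPM (1.56, 1.45 to 1.68) in Npc1KO. *Peg3* shared the lower side with ratios of 0.70 and 0.78, and *Gnas* stood at 1.04 and 1.19. *Plagl1*, though sparse, was higher in cycling β cells with ratios of 2.78 (1.70 to 4.38) on 23 UMIs and 3.05 (1.46 to 5.79) on 11 UMIs.

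In α cells *Meg3*, *Nnat* and *Plagl1* were 1.5-fold apart the same way in both libraries, 3 of 7 members against 20.5% of 9987 genes. *Plagl1* reached the 5 CPM of the filter in cycling α cells alone, at 7.04 against 2.47 CPM in WT and 9.07 against 2.36 CPM in Npc1KO. It thus passed only through the group where it was higher. α cells gave the same direction for *Meg3* (0.61 and 0.64), *Peg3* (0.79 and 0.77) and *Plagl1* (2.86 and 3.85), but the opposite one for *Nnat*, with ratios of 0.46 (0.24 to 0.81) and 0.60 (0.35 to 0.98) on 13 and 18 UMIs in cycling cells. PP-leading cells, with 27 and 22 cycling cells, also had *Plagl1* ratios of 2.78 and 4.01 and *Meg3* ratios of 0.47 and 0.60. *Dlk1*, present in PP-leading cells at large, had none of its 111 UMIs in the cycling WT cells and 4 of 223 in those of Npc1KO. *Cdkn1c*, whose product blocks the cycle, had no single direction in cycling cells: its ratios were 1.05 (0.59 to 1.75) and 2.38 (1.503 to 3.61) in β and 0.91 (0.59 to 1.35) and 0.95 (0.66 to 1.34) in α cells, and in PP-leading cells 5.48 (2.54 to 11.4) on 13 UMIs and 1.51 (0.58 to 3.31) on 7. In WT endothelial cells its ratio was 0.68 (0.39 to 1.12) on 17 UMIs. For *Dlk1* the β cell ratio was 1.29 in WT and 3.59 in Npc1KO. In Npc1KO 45 of its 85 UMIs in cycling cells were in 2 cells, and with *Dlk1*-rich cells left out the levels were 15.6 against 8.51 CPM. Cycling cells were deeper in each class compared, and deeper cells pass a marker count more readily. In β cells the median UMIs were 36512 against 30261 in WT and 31923 against 30073 in Npc1KO. The gap was wider in α cells, at 22378 against 16861 and 26162 against 18529. In PP-leading cells it was 29389 against 18447 and 32914 against 19229, and in WT endothelial cells 17761 against 7658. The part of depth and of doublets in these ratios was not tested.

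β cells were also split by PP-fold hormones, with 491 of 1833 WT and 821 of 1826 Npc1KO cells at 1% or more of UMIs from *Ppy* and *Pyy*. *Meg3* was higher in these cells, at 1029 against 737 CPM (1.397, 1.37 to 1.42) in WT and 967 against 749 CPM (1.29, 1.27 to 1.32) in Npc1KO. *Nnat* was lower, at 111 against 177 CPM (0.63, 0.59 to 0.66) and 148 against 219.9 CPM (0.67, 0.64 to 0.70). *Gnas* went with *Meg3* (1.38 and 1.29), as did the sparse *Cdkn1c* (1.78, 1.34 to 2.34, and 1.63, 1.25 to 2.14). *Cdkn1c* alone of 7 members was past 1.5-fold in both libraries, against 3.78% of 8707 genes. It reached the 5 CPM of the filter in *Ppy*-rich cells alone, at 6.22 against 3.50 CPM in WT and 5.53 against 3.38 CPM in Npc1KO. It thus passed only through the group where it was higher. *Peg3* stayed at 1.04 and 0.999. The genes of β cell maturity *Ucn3* and *Mafa* were lower in the same cells in both libraries, with ratios of 0.35 to 0.39, and *Ins2* stood at 0.82 and 0.80. Free *Ppy* RNA and mixed droplets can place a β cell in the upper group, and their part was not tested. The ratios are of plain CPM, not scaled to the median gene. Insulin took up less of the total in *Ppy*-rich cells, with *Ins1* at 161243 against 173059 and *Ins2* at 297877 against 365203 CPM in WT. In Npc1KO *Ins1* was at 152274 against 170207 and *Ins2* at 288888 against 360059 CPM. A smaller insulin share by itself raises the CPM of other genes, and this part was not tested.

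**Figure D5:**
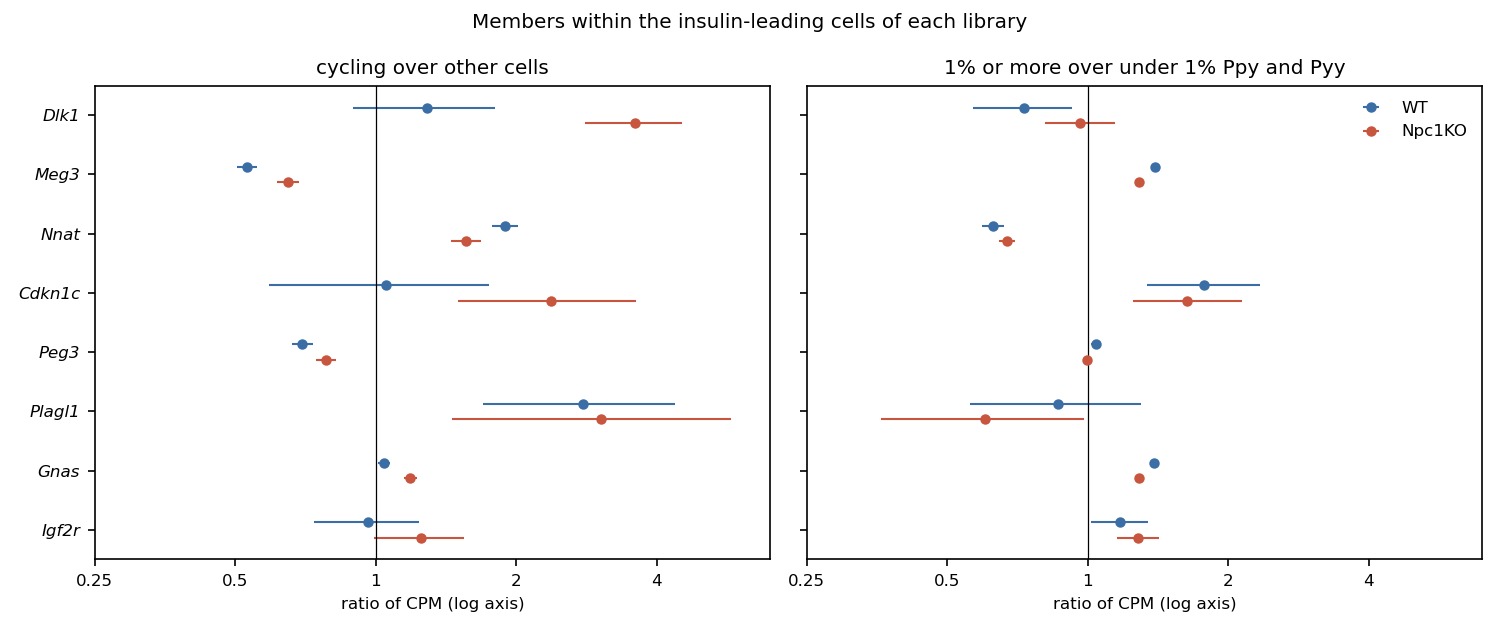
Ratio of CPM (log axis) of 8 members within insulin-leading cells of each library, with exact 95% counting intervals; left, cycling over other cells, right, cells with 1% or more over cells with under 1% of UMIs from *Ppy* and *Pyy*. *Meg3* lies below 1 in cycling and above 1 in *Ppy*-rich cells, and *Nnat* the reverse, in WT (blue) and Npc1KO (red) alike; *Igf2* and *H19* had too few UMIs to be shown.

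The other genes of insulin-like growth factor signalling set these values in context. Of 15 ligands, receptors, adaptors and binding proteins listed, 8 passed the class filter and 5 were class-led, against 22.5% of all 8966 genes. *Igf1*, the postnatal ligand, was highest in mesenchymal cells at 216 and 237 CPM and next in endothelial cells at 114 and 88.1 CPM. β cells had 15 and 20 UMIs of it. Binding proteins that hold the ligands outside cells were led by endothelial cells for *Igfbp3* (1104 and 1644 CPM) and *Igfbp7* (11241 and 11837 CPM), by mesenchymal cells for *Igfbp4* (1665 and 1471 CPM) and by stellate cells for *Igfbp5* (264 and 284 CPM). *Igf1r*, the signalling receptor, was broad, with 56.2 and 73.9 CPM in β cells. Between the genotypes, only *Igfbp5* of the 8 that passed in β cells was called, against 2.65% of all genes. It was lower in Npc1KO at −0.67 (−0.94 to −0.41) on 299 and 201 UMIs. *Igfbp5* reached 5 CPM in WT alone, at 5.46 against 3.71 CPM in Npc1KO.

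A further 37 imprinted genes were listed, 35 of which were in the features, and 21 passed the class filter. Of these, 7 were class-led, against 22.5% of all 8966 genes. Mesenchymal cells led 4 of the 7, against 314 of all 2018 class-led genes. Such counts are not read as results about a list. *Dcn*, a collagen-binding proteoglycan of connective tissue, had the largest fold, at 3139 and 3321 CPM in mesenchymal cells. *Ddc*, which makes dopamine and serotonin (168 and 147 CPM), and *Rasgrf1*, a Ras exchange factor (63.8 and 70.3 CPM), were led by β cells. *Nap1l5* was led by α cells (118 and 95.0 CPM). *Peg10* was highest in α cells in WT (66.6 CPM) and in δ cells in Npc1KO (82.2 CPM), so it was not called. None of the 18 that passed in β cells was called between the genotypes, and their median log2 ratio was 0.12, beside 0.15 for the 6 members and 0 for all genes. Among the 6 other inhibitors of cyclin-dependent kinases, 4 passed the class filter and none was class-led. *Cdkn2b* was lower in Npc1KO β cells at −0.83 (−1.05 to −0.61), on 456 and 275 UMIs. The inhibitors *Cdkn2c* (ratios 67.1 and 75.6) and *Cdkn2d* (12.2 and 15.6) were far higher in cycling than in other β cells of both libraries. *Cdkn2a* was too (32.6, 19.4 to 56.4, and 85.2, 34.3 to 253), on 51 and 26 UMIs in cycling and only 22 and 6 UMIs in other cells. *Cdkn1a* (3.36 and 3.18) and *Cdkn1b* (1.34 and 1.86) were higher by less, and *Cdkn2b* stood at 0.88 and 1.13. Of the 20 proliferation genes, 17 passed the class filter and none was class-led, with *Prc1* (3.90), *Ccna2* (3.43), *Pclaf* (3.36), *Tpx2* (3.17) and *Aurkb* (3.01) having the largest fold over the median class in the library where that fold was smaller. In β cells 17 passed between the genotypes and 2 were called, against 2.65% of all genes. These were *Pclaf* at −0.90 and *Cdc20* at −0.61, both lower in Npc1KO.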

How the data were processed

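Dispersed islet cells of 1 WT and 1 Npc1KO pool were profiled by 10x Genomics 3′ chemistry, named v3 in the labels and v2 in the study's methods. The files the authors deposited hold UMI counts of genes by cell barcode (8569 WT and 7646 Npc1KO barcodes with 114324626 and 127122035 UMIs), not normalized. The submitters' processing notes name Cell Ranger 3.1.0, Seurat 4.0.3 and mm10, and GENCODE vM21 was used here for positions.

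Barcodes with over 1000 genes, under 50000 UMIs, under 10% mitochondrial and at most 0.1% haemoglobin UMIs were kept, after the study's filter. A class was the largest hormone at 10% of UMIs or more, otherwise the marker list with the highest mean log2(1 + UMIs per 10000) with at least 3 markers detected. Clusters were not used, and doublets were not removed in the main values. UMIs were summed by class and divided by the class total (CPM). Ratios had 0.5 UMI added to each library and exact conditional binomial intervals, CPM exact Poisson intervals, and shares exact Clopper-Pearson intervals. A floor of 3 UMIs was used for a count of 0. The comparisons were descriptions with 1 library a group, and the ratio and class rules were checked on simulated counts with 200 genes changed. Members, lists and splits were chosen with earlier results of these data known. The genes named were the members, the 3 most similar to each (for *H19* and *Igf2r* some are not reported here), the 5 genes of each other list with the largest class fold among those that passed the class filter, and the listed genes called in β cells. *Igf1r*, *Ucn3*, *Mafa*, *Ins1*, *Ins2*, *Npc1*, *Cdkn2a*, *Gm49394* and the opposite-strand genes were named outside this rule, for context, after their values were seen. Analyses ran in Python 3.11.15 with numpy 2.4.6, scipy 1.17.1 and scanpy 1.11.5 (Scrublet), with edgeR 4.0.16 in R 4.3.3 only for a TMM factor.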

Additional observations from a re-analysis of the deposited data

How the results depend on the processing

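With 1 library per genotype no replicate could be left out. No paired analysis was possible because each group has a single sample and no test was made. The 8 member and class pairs that were 1.5-fold apart became 4 after Scrublet, 4 at a 2-fold threshold and 19 with no filter on low values, and 7 to 10 under the other alternatives; after Scrublet *Plagl1* in mesenchymal and *Dlk1* in PP-leading cells remained, and *Dlk1* in δ and *Nnat* in α cells were added. Over all genes in β cells, 235 became 417 with hormone genes left out of the totals, 5073 with no filter and 59 at 2-fold. Class-led members numbered 4 to 6 under every alternative run, against 5, and all class-led genes 1340 at 8-fold, against 2018. Of the members 1.5-fold apart in both libraries, *Cdkn1c* between *Ppy*-rich and other β cells was lost when the split was set at 2%, which left 0, and the 2 in cycling β cells, *Meg3* and *Nnat*, became 1 (*Meg3*) with 8 markers. None of the values called in the main run changed sign. *Nnat*, not called between the genotypes there, was less steady. In Schwann cells it was at 0.25 and became a call at −0.60 with the looser cell filter. In α cells it was a call at 0.59 after Scrublet but stood at −0.45 with cells holding markers of 2 classes removed. Of 721 single genotype ratios 670 stayed within their counting interval, as did 31 of 40 split ratios, and 67 of 81 class folds stayed within 1.5-fold with the same leading class. Leaving out the cell with most UMIs of a member was chosen after seeing the data and gave 9 pairs. Under the stricter cell filter Schwann cells were too few to compare. Sparse members (*Igf2*, and *H19*, *Plagl1* and *Cdkn1c* in hormone classes) are limited by depth.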
